A study of Mus musculus with 28 samples.

Results

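Bone morphogenetic protein (BMP) signaling was described in colon organoids through 10 genes chosen by name: the ligands *Bmp2*, *Bmp4* and *Bmp7*, the receptor *Bmpr1a*, the inhibitory SMADs *Smad6* and *Smad7*, the pseudoreceptor *Bambi* and the targets *Id1*, *Id2* and *Id3*. Of these, 9 were among the 13519 genes counted, and *Bmp4* was not analysed here. No further filter on low counts was applied to the 9 genes here, while per the methods the authors removed genes with very low row sums. The lowest count of any of them in any sample was 109, for *Bmp7*.

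Colon epithelium organoids from C57BL/6N mice were sequenced in 28 samples from 7 donors. All donors carried *Villin*::CreERT2, in which the *Villin* promoter drives a tamoxifen-inducible Cre in the gut epithelium, and *Apc* flox/flox, and the AC organoids (1 donor) carried no further engineered allele. PAC organoids (2 donors) also carried *Trp53* LSL-R172H/+, BAC organoids (2 donors) *Braf* floxV600E/+, and BPAC organoids (2 donors) both alleles. Each donor gave 2 numbered duplicates, and each duplicate was treated with 3.5 µM 4-hydroxytamoxifen (4-HT), which activates Cre, or with ethanol (EtOH) as the control, for 24 hours, with RNA isolated 3 days later. The study describes 2 donor mice per genotype and organoids from 2 passages, while the labels give 1 donor for AC, which is used here, and do not say which duplicate is which passage. Thus 4-HT was compared with EtOH in 2 samples per treatment for AC and in 4 for each of the other genotypes. No organoids without floxed *Apc* were included, so the effect of 4-HT or of Cre itself cannot be told apart from the loss of *Apc*. According to the methods the medium contained Noggin, an extracellular antagonist that binds BMP ligands, together with R-spondin-1, EGF, Wnt3a and a GSK3 inhibitor.

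In the colon, BMP ligands bind receptor pairs that include BMPR1A, the activated receptors phosphorylate SMAD1 and SMAD5, and these enter the nucleus with SMAD4 to switch on targets such as the Id genes. Id proteins are helix-loop-helix factors that lack a DNA-binding region and hold E proteins away from DNA. SMAD6, SMAD7 and BAMBI act as brakes on the pathway, and BMP activity in the differentiated compartment opposes Wnt activity at the crypt base.

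Total counts ranged from 20577276 to 40068718 per sample. All 10 markers of colon epithelium on a fixed list were counted at 164 CPM (normalized counts scaled to a common library size) or more in every sample, while only 2 of 10 fibroblast, endothelial and immune markers, *Vim* and *Pecam1*, were counted, with a summed level of 2.52 to 7.40 CPM and *Col1a1*, *Pdgfra* and *Ptprc* were not analysed here. The summed level of the epithelial markers was 19330 to 31020 CPM with EtOH and 17040 to 22200 CPM with 4-HT. Of these 10 markers 5 fell with 4-HT in each of BAC and BPAC, 3 in PAC and 1 in AC, against 21.5%, 23.0%, 12.2% and 4.25% of all genes called as lower, and none was called as higher. With the EtOH and 4-HT samples of a culture paired, 7 fell in BPAC, 5 in BAC, 4 in PAC and 3 in AC, against 27.7%, 26.7%, 18.4% and 8.99% of all genes in that fit, and *Krt18*, a keratin of simple epithelia, rose in BPAC (0.52 on the log2 scale, adjusted p = 8.94e-05), BAC (0.54, adjusted p = 6.35e-05) and PAC (0.42, adjusted p = 0.00114). *Krt18* was higher with 4-HT in 14 of 14 cultures, by a median log2 change of 0.45. When both duplicate 1 cultures of PAC were left out, which is explained below, 0 of the 10 markers were called in PAC, 1 fell in the paired fit, and *Krt18* was not called there (0.37, adjusted p = 0.0587). *Krt20*, a keratin of differentiated colonocytes, was lower in 14 of 14 cultures, by a median log2 change of -1.76, and the part of these markers in the results was not tested. *Trp53* was at 51.4 to 66.1 CPM in the EtOH-treated samples that carried the LSL allele and at 97.9 to 122 CPM in those that did not, and at 148 to 227 CPM with 4-HT in all genotypes. *Braf* lay between 20.2 and 27.9 CPM in all samples (it fell in PAC, by 0.30 on the log2 scale, a call lost without both duplicate 1 cultures, with -0.17 and an adjusted p of 0.441), and the reads over its mutated base were not analysed here. *Apc* counts covered the whole gene and were higher with 4-HT, at 51.4 to 73.8 CPM against 27.9 to 49.7 CPM, so they do not check the deletion. In PAC, the duplicate 1 samples of both donors treated with 4-HT had *Xist* as well as Y-linked genes above 1 CPM, which none of the other 26 samples had, and their counts differed by a chi-square of 2.38 per gene against 8.53 to 287 in 37 other pairs of samples. Scaled by library size alone, *Xist* was at 27.5 CPM in donor 1 and 23.9 CPM in donor 2, and Y-linked genes summed to 60.1 and 58 CPM. In the EtOH samples of the same cultures, *Xist* was at 0.24 and 54.4 CPM and the Y-linked sum at 128 and 0 CPM. Both 4-HT samples were kept as labelled, and whether they were mixed or swapped was not tested. Calls of the 9 genes in PAC and between duplicates, the list counts in PAC and the named genes' calls there are given with and without both duplicate 1 cultures of PAC.

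Promoter sequence was looked up for the 9 genes in a RefSeq table of GRCm38.p6, which held a window for *Bmpr1a*, *Smad6*, *Id2* and *Id3* and none for *Bmp2*, *Bmp7*, *Smad7*, *Bambi* and *Id1*. The gene positions given below come from GENCODE, which has the RefSeq start for *Smad6*, while the windows of *Id2*, *Bmpr1a* and *Id3* lie inside the longer GENCODE genes. The 250 bases before each RefSeq start were searched on both strands for 4 motifs: GGCGCC, a BMP-responsive SMAD motif, CAGAC, the SMAD-binding element's core, CTTTGA, a TCF motif, and CANNTG, the E box bound by E proteins. The 3 sequences below show the part of each window outside annotated UTRs, to set a target, a brake and the receptor side by side, with GGCGCC and CAGAC matches in capitals.
*Id2*, chr12:25096254-25096342, minus strand, 250 to 162 bases before the start: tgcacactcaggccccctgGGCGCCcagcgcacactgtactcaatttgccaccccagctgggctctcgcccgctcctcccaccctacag
*Smad6*, chr9:64022060-64022309, minus strand, 250 to 1 bases before the start: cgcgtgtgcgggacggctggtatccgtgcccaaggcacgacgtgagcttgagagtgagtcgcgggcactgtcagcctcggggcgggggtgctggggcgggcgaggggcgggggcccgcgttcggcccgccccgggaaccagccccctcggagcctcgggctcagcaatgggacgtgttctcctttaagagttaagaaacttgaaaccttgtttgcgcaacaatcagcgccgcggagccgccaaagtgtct
*Bmpr1a*, chr14:34502688-34502796, minus strand, 250 to 142 bases before the start: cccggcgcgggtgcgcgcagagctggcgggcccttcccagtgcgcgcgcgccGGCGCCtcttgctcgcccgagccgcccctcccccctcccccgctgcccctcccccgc

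GGCGCC was found in *Id2*, 231 to 226 bases before the start, and in *Bmpr1a*, 198 to 193 bases before the start, and it occurs in 9.59% of 32851 windows of the same length. *Id3* (window chr4:136143572-136143821, plus strand, all of it annotated as 5′ UTR and not printed) held CAGAC at 167 to 163 and at 68 to 64 bases before the start, a motif in 42.2% of windows. *Id2* also held an E box at 196 to 191 bases, as 66.2% of windows do, and CTTTGA, in 13.8% of windows, was in none of the 4 genes. *Smad6* held none of the 4 motifs. These are matches of letters, and binding was not measured.

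Levels were compared between genes as CPM per kilobase of exon. With EtOH the medians over 14 samples were 85.0 for *Id1*, 38.1 for *Id3*, 37.7 for *Bmp2*, 21.5 for *Id2* and 15.3 for *Bmpr1a*, and from 2.09 (*Bmp7*) to 8.99 (*Smad7*) for the other 4. The median over all genes, of the mean over samples, was 5.23. *Id1* (46.0 to 145) was thus the highest of the 9 genes by its median, although its range met those of *Id3* (19.3 to 63.3) and *Bmp2* (23.8 to 86.5), and these overlapped each other over most of their length. *Bmp7* (1.45 to 3.18) and *Bambi* (2.01 to 4.15) were the lowest and overlapped as well. With 4-HT the median of *Bmp2* was 12.5 and that of *Bmp7* was 6.02, while *Id1* was at 84.5 and *Bmpr1a* at 13.8.

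**Figure D1:**
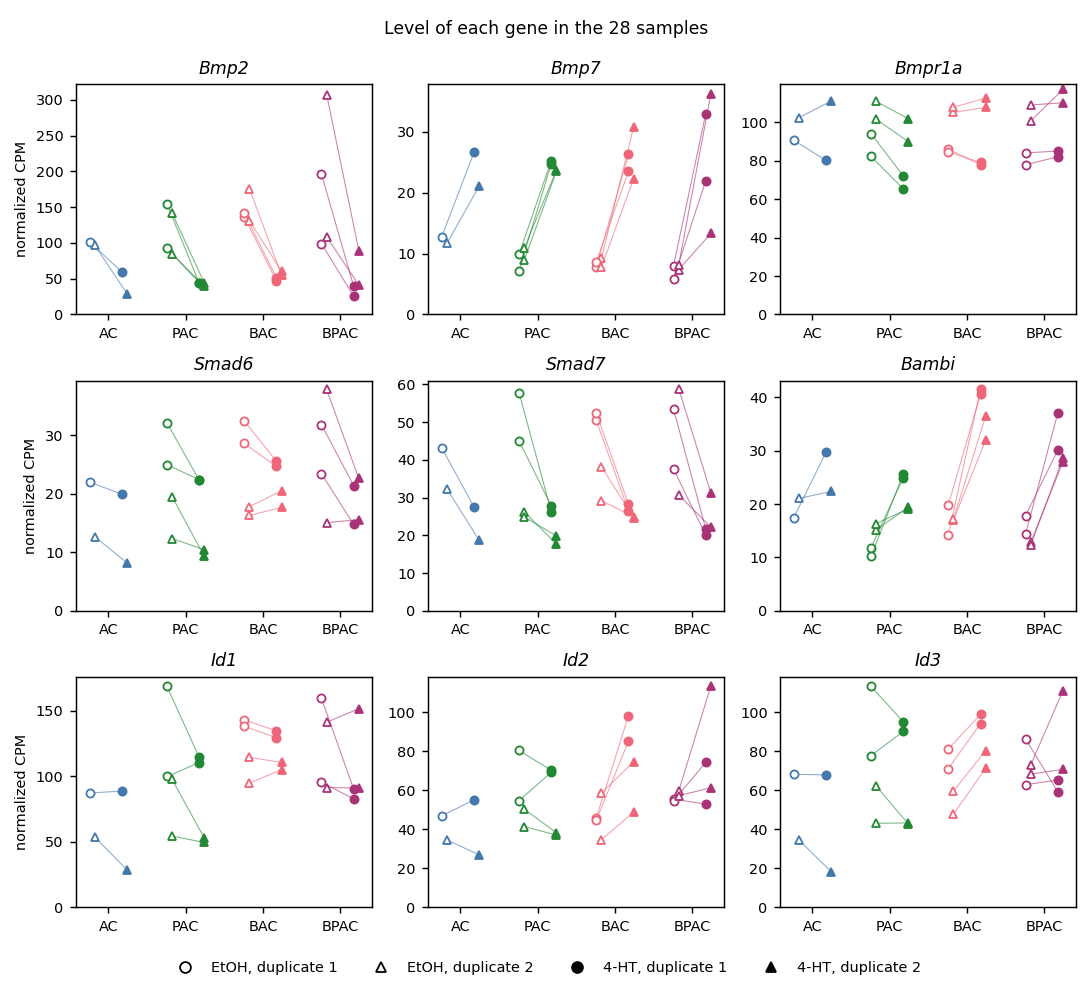
Level of each of the 9 genes in the 28 samples, in normalized CPM on a linear axis from 0, by genotype; open symbols are EtOH, filled symbols 4-HT, circles duplicate 1, triangles duplicate 2, and a line joins the samples of a culture. *Bmp2* was lower with 4-HT and *Bmp7* higher in all 14 cultures, while lines of *Id1* and *Id3* run in both directions.

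The first question was how the genes changed after recombination in each genotype. The ligands moved in opposite directions: *Bmp2* was lower and *Bmp7* higher with 4-HT in 14 of 14 cultures, *Bambi* was higher and *Smad7* lower in 14 of 14, and *Bmpr1a* and the 3 Id genes had no common direction. Such runs were not particular to these genes, as the epithelial markers *Epcam*, *Cdh1* and *Vil1* were also lower in 14 of 14 and *Krt18* higher. The share of all genes with a common direction in every culture was not counted here. A change was called at an adjusted p under 0.01 in edgeR's quasi-likelihood test over all 13519 genes. In AC organoids 0 of the 9 genes were called, where 3.00% of all genes were called as higher and 4.25% as lower. With limma-voom the count was also 0 and with DESeq2 it was 1, and 2 had an unadjusted p under 0.05, as 30.8% of all genes did. In PAC organoids 2 rose and 1 fell, against 11.2% and 12.2% of all genes. Without both duplicate 1 cultures of PAC, 0 of the 9 were called there, against 0.163% of all genes as higher and 0.192% as lower. With the duplicate 1 culture of PAC donor 2 alone left out, 1 of the 9 was called there, with 1422 of all genes called in either direction. In BAC organoids 2 rose and 1 fell, against 20.3% and 21.5% of all genes. In BPAC organoids 2 rose and 2 fell, against 22.0% and 23.0% of all genes. With the culture as a block, which pairs the EtOH and 4-HT samples of a duplicate, AC had 1 rise and 1 fall, against 7.45% and 8.99% of all genes, and PAC 2 rises and 3 falls, against 16.5% and 18.4%. BAC then had 3 rises and 2 falls, against 25.3% and 26.7%, and BPAC 2 rises and 3 falls, against 26.7% and 27.7%. With the block and without both duplicate 1 cultures of PAC, *Bmp7* rose and *Bmp2* fell in PAC, against 3.03% and 3.71% of all genes. The median log2 change of the 9 genes lay between -0.25 (AC) and 0.08 (BPAC), and that of all genes between -0.04 and 0.01. Because whole organoids were sequenced, fewer cells of a type and less RNA per cell cannot be told apart.

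**Figure D2:**
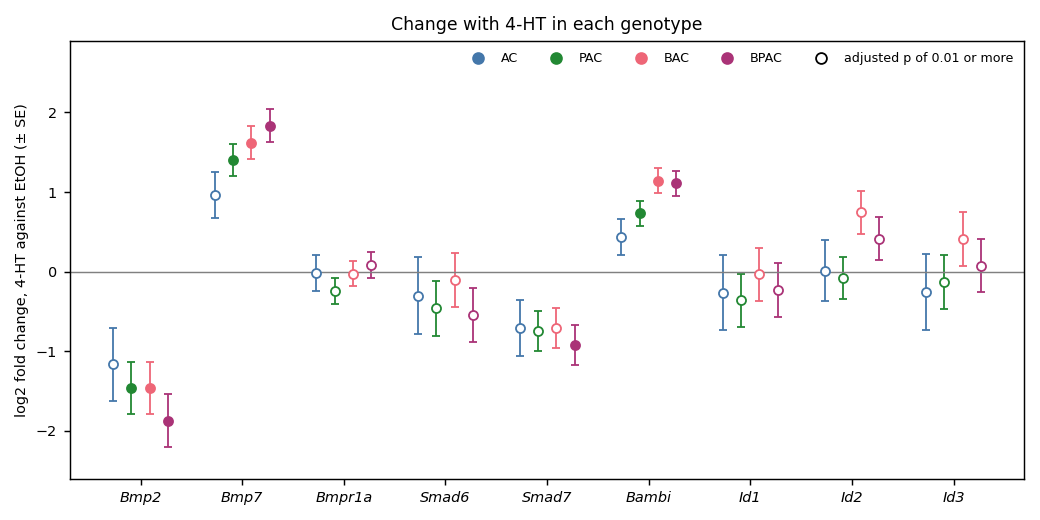
Log2 fold change of 4-HT against EtOH with its SE for each gene and genotype; filled points have an adjusted p under 0.01 in edgeR's quasi-likelihood test. *Bmp2* points sit between -1.87 and -1.16 and *Bmp7* points between 0.96 and 1.83, with *Bmpr1a* near 0.

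*Bmp2* (ENSMUSG00000027358, chromosome 2 from 133552159 to 133562885, plus strand, protein coding) encodes a ligand made by differentiated colonocytes. In AC organoids *Bmp2* was at 101 and 96.6 CPM with EtOH and at 59.3 and 29.0 CPM with 4-HT. In PAC organoids the EtOH values were 92.8, 84.5, 155 and 142 CPM, and the 4-HT values were 44.7, 39.7, 43.8 and 43.9 CPM. BAC organoids held 137, 176, 142 and 131 CPM with EtOH and 46.7, 54.8, 51.5 and 60.3 CPM with 4-HT. In all 3 genotypes every 4-HT value lay under every EtOH value of the same genotype. Values are given with duplicates 1 and 2 of donor 1 first and those of donor 2 after them. BPAC organoids held 196, 308, 99.2 and 109 CPM with EtOH and 39.3, 89.4, 25.3 and 41.1 CPM with 4-HT, again without overlap, although duplicate 2 of donor 1 stood above the other cultures with both treatments. On the log2 scale *Bmp2* in BPAC fell by 1.87 ± 0.33 (SE, adjusted p = 3.64e-05). The fall in PAC was -1.46 ± 0.33 (adjusted p = 0.00126), and BAC organoids had the same value (adjusted p = 0.000573). In AC the log2 change was -1.16 ± 0.46 (adjusted p = 0.0827), and with the culture as a block it was -1.25 (adjusted p = 0.00118); leaving out both cultures of BPAC donor 1 gave -1.16 (adjusted p = 0.00692). Without both duplicate 1 cultures of PAC the PAC change was -1.44 (adjusted p = 0.0808), or -1.40 with the block (adjusted p = 0.00170), and without the duplicate 1 culture of PAC donor 2 it was -1.31 (adjusted p = 0.0165); without the duplicate 2 culture of that donor it was -1.37 (adjusted p = 0.0103). When each donor's duplicates were added together, the calls in PAC (-1.46, adjusted p = 0.0206) and BAC (-1.44, adjusted p = 0.0141) were lost. In duplicate 2 alone those in PAC (-1.44, adjusted p = 0.0953), BAC (-1.42, adjusted p = 0.0335) and BPAC (-1.67, adjusted p = 0.0164) were lost.

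*Bmp7* (ENSMUSG00000008999, chromosome 2 from 172868012 to 172940321, minus strand, protein coding) encodes a ligand that can pair with BMP2 in heterodimers. Across all 14 EtOH-treated samples *Bmp7* ranged from 5.83 to 12.8 CPM (median 8.38), and across the 14 4-HT-treated samples from 13.3 to 36.2 CPM (median 24.2). It was the only one of the 9 genes whose EtOH and 4-HT values did not overlap over all genotypes. *Krt20*, *Apc* and *Atoh8* did not overlap either, and the share of all genes without overlap was not counted here. The 4-HT values of PAC were 25.3, 23.5, 24.7 and 23.7 CPM, with the duplicate 1 values (25.3 and 24.7) from the samples that stand apart, while those of BPAC were spread from 13.3 CPM (duplicate 2 of donor 1) to 36.2 CPM (duplicate 2 of donor 2). *Bmp7* in PAC rose by 1.40 ± 0.20 (SE, log2, adjusted p = 2.38e-05). The rise was 1.62 ± 0.21 for BAC organoids (adjusted p = 5.20e-07) and 1.83 ± 0.21 for BPAC organoids (adjusted p = 7.80e-08). In AC, with 12.8 and 11.7 CPM against 26.6 and 21.03 CPM, the log2 change was 0.96 ± 0.29 (adjusted p = 0.0216), and 0.96 with the culture as a block (adjusted p = 0.00473). It also passed in AC when the duplicate 2 culture of BPAC donor 1 was left out (0.96, adjusted p = 0.00285), in DESeq2 (0.96, adjusted p = 0.00772) and with library size alone (1.19, adjusted p = 0.00499). Without both duplicate 1 cultures of PAC the PAC change was 1.25 (adjusted p = 0.0258), or 1.26 with the block (adjusted p = 0.00271).

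Within each sample the ratio of *Bmp2* to *Bmp7*, both per kilobase of exon, put the shift on one scale. With EtOH the ratio ranged from 8.98 to 47.3 with a median of 16.8. With 4-HT it ranged from 0.870 to 7.6 with a median of 2.01, and it was lower than with EtOH in every culture. In AC it went from 8.98 and 9.37 to 2.52 and 1.56. The 4-HT ratios of PAC lay between 1.91 and 2.10, with 2 of the 4 from the samples that hold *Xist* and Y-linked counts together, and those of BPAC between 0.870 and 7.6. The ratio has no test of its own, since it restates the changes of both genes.

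**Figure D3:**
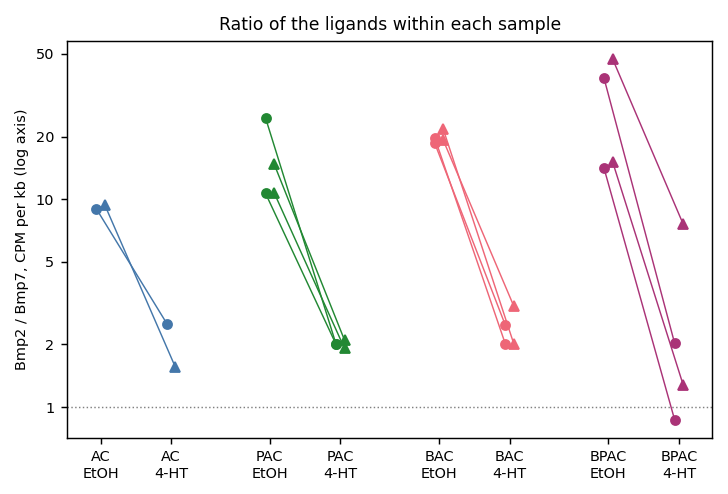
Ratio of *Bmp2* to *Bmp7*, both in CPM per kilobase of exon, in each sample on a log axis; circles are duplicate 1, triangles duplicate 2, and a line joins the samples of a culture. Every line falls, from 8.98 to 47.3 with EtOH to 0.870 to 7.6 with 4-HT, and 1 BPAC culture ends under 1.

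*Bmpr1a* (ENSMUSG00000021796, chromosome 14 from 34410734 to 34503341, minus strand, protein coding) encodes the main type I BMP receptor of the gut epithelium. Its levels ranged from 78.0 to 111 CPM with EtOH (median 97.4) and from 65.4 to 117 CPM with 4-HT (median 87.5), and the ranges overlapped in every genotype. The log2 changes ran from -0.24 ± 0.16 (SE) in PAC to 0.08 ± 0.16 in BPAC, with -0.01 ± 0.23 for AC and -0.02 ± 0.16 for BAC, with adjusted p from 0.257 to 0.979. With the culture as a block *Bmpr1a* passed in PAC, at -0.25 (adjusted p = 0.00634), where it was lower in 4 of 4 cultures, and not without both duplicate 1 cultures (-0.15, adjusted p = 0.293). An antisense gene, *Gm17110*, overlaps *Bmpr1a*, and the strand setting of the counting is not given in the sources used here.

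*Bambi* (ENSMUSG00000024232, chromosome 18 from 3507923 to 3516404, plus strand, protein coding) encodes a receptor-like protein that lacks the kinase domain and is also a known Wnt target. In AC organoids *Bambi* was at 17.5 and 21.1 CPM with EtOH and at 29.7 and 22.4 CPM with 4-HT. PAC organoids held 11.9, 15.2, 10.2 and 16.3 CPM with EtOH and 24.9, 19.4, 25.6 and 19.1 CPM with 4-HT, which did not overlap. BAC organoids held 14.2, 17.0, 19.9 and 17.2 CPM with EtOH and 41.5, 32.0, 40.6 and 36.5 CPM with 4-HT. The BAC values with 4-HT were above all those of AC and PAC. BPAC organoids held 14.4, 12.8, 17.9 and 12.3 CPM with EtOH and 37.1, 27.9, 30.1 and 28.6 CPM with 4-HT. *Bambi* in PAC rose by 0.73 ± 0.16 (SE, log2, adjusted p = 0.000929). The rise was 1.14 ± 0.16 for BAC organoids (adjusted p = 1.77e-06) and 1.11 ± 0.16 for BPAC organoids (adjusted p = 2.27e-06). In AC the log2 change was 0.44 ± 0.22 (adjusted p = 0.185). In PAC the change was 1.20 in duplicate 1 and 0.29 in duplicate 2, and without both duplicate 1 cultures it was 0.29 (adjusted p = 0.379, and 0.283 with the block); with PAC fitted alone the change missed the threshold as well (0.74, adjusted p = 0.0123). Without the duplicate 1 culture of donor 1 alone it was 0.62 (adjusted p = 0.0173), and without that of donor 2 it was 0.55 (adjusted p = 0.0238).

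*Smad7* (ENSMUSG00000025880, chromosome 18 from 75367529 to 75395935, plus strand) and *Smad6* (ENSMUSG00000036867, chromosome 9 from 63953076 to 64022059, minus strand) are protein coding genes for inhibitory SMADs that BMP and TGF-β signaling induce as feedback. *Smad7* ranged from 24.9 to 58.9 CPM with EtOH (median 40.7) and from 17.7 to 31.2 CPM with 4-HT (median 24.8). In BPAC organoids it was at 53.4, 58.9, 37.5 and 30.7 CPM with EtOH and at 21.7, 31.2, 20.1 and 22.2 CPM with 4-HT. *Smad7* was thus lower in each culture, with values that overlapped between cultures of BPAC. It fell by 0.92 ± 0.25 (SE, log2) in BPAC (adjusted p = 0.00290). The log2 changes elsewhere were -0.71 ± 0.35 for AC (adjusted p = 0.178), -0.75 ± 0.25 for PAC (adjusted p = 0.0216) and -0.71 ± 0.25 for BAC (adjusted p = 0.0193). With the culture as a block *Smad7* passed in PAC (-0.69, adjusted p = 0.000726) and BAC (-0.68, adjusted p = 0.000432) as well. When both duplicate 1 cultures of PAC were left out, the blocked change in AC passed too (-0.72, adjusted p = 0.00749), BAC stayed called (-0.68, adjusted p = 0.000262) and PAC did not (-0.45, adjusted p = 0.0966). The BPAC call was lost without the duplicate 1 culture of donor 1 (-0.79, adjusted p = 0.0307), without that of donor 2 (-0.93, adjusted p = 0.0108), without both cultures of donor 1 (-0.69, adjusted p = 0.1004), in duplicate 2 alone (-0.75, adjusted p = 0.0503), and with library size alone as the scaling (-0.70, adjusted p = 0.0177).

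*Smad6* ranged from 12.4 to 37.8 CPM with EtOH (median 22.7) and from 8.20 to 25.6 CPM with 4-HT (median 20.2), and was lower in 11 of 14 cultures. Its log2 changes ran from -0.54 ± 0.34 (SE) in BPAC to -0.11 ± 0.34 in BAC, with adjusted p from 0.183 to 0.811. With the culture as a block the BPAC change was -0.49 (adjusted p = 0.00860). The wide ranges of *Smad6* came with a difference between the duplicates that is described below.

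The Id genes are the usual readout of BMP activity. *Id1* (ENSMUSG00000042745, chromosome 2 from 152736251 to 152737410, plus strand), *Id2* (ENSMUSG00000020644, chromosome 12 from 25093799 to 25097140, minus strand) and *Id3* (ENSMUSG00000007872, chromosome 4 from 136143497 to 136145755, plus strand) are protein coding. *Id1* ranged from 53.4 to 169 CPM with EtOH (median 98.6) and from 28.6 to 152 CPM with 4-HT (median 98.0). *Id3* ranged from 34.5 to 113 CPM with EtOH (median 68.3) and from 18.3 to 111 CPM with 4-HT (median 71.1). Both treatments overlapped over nearly their whole range for *Id1* and *Id3*. The log2 changes of *Id1* ran from -0.36 ± 0.33 (SE) in PAC to -0.03 ± 0.33 in BAC, with -0.26 ± 0.47 for AC and -0.23 ± 0.33 for BPAC, with adjusted p from 0.418 to 0.945. For *Id3* they ran from -0.25 ± 0.48 in AC to 0.41 ± 0.34 in BAC, with -0.13 ± 0.34 for PAC and 0.08 ± 0.34 for BPAC, with adjusted p from 0.311 to 0.862. *Id3* was higher with 4-HT in 4 of 4 BAC cultures and in none of the 2 AC cultures, where the changes were -0.007 in duplicate 1 and -0.91 in duplicate 2.

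*Id2* in BAC organoids was at 45.8, 58.5, 44.5 and 34.6 CPM with EtOH and at 98.1, 74.6, 85.2 and 48.8 CPM with 4-HT. The log2 change was 0.74 ± 0.27 (SE, adjusted p = 0.0231), and 0.72 with the culture as a block, where it passed (adjusted p = 0.000813). It was higher in 4 of 4 BAC cultures, as *Id3* was, by 1.04 in duplicate 1 alone (adjusted p = 0.000681) and by 0.41 in duplicate 2 alone (adjusted p = 0.319). The changes in the other genotypes were 0.01 ± 0.38 in AC, -0.08 ± 0.27 in PAC and 0.41 ± 0.27 in BPAC, with adjusted p from 0.196 to 0.991. The signs of the smallest changes depend on the scaling: with library size alone, which moves the median log2 change of all genes from between -0.04 and 0.01 to between 0.13 and 0.23, *Id2* and *Id3* in PAC, *Id1* and *Smad6* in BAC and *Bmpr1a* in AC and BAC turned from below to above 0, none of them past the threshold. That scaling also moved the share of higher genes among those called from 41.4% to 83.3% in AC, from 47.7% to 82.1% in PAC, from 48.6% to 65.3% in BAC and from 48.9% to 68.0% in BPAC.

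The next question was whether the *Braf* or the *Trp53* allele altered these changes. For the *Braf* allele the average change in AC and PAC was subtracted from that in BAC and BPAC, and 0 of the 9 genes passed, where 6.61% of all genes did (46.3% of these as larger, and 34.6% with library size alone). Limma-voom and DESeq2 also called 0, and 2 genes had an unadjusted p under 0.05, *Bambi* and *Bmp7*, where 28.5% of all genes did. The difference was 0.54 ± 0.18 (SE, log2) for *Bambi* (adjusted p = 0.0392) and 0.54 ± 0.23 for *Bmp7* (adjusted p = 0.108). Without both duplicate 1 cultures of PAC the difference of *Bambi* was 0.76 (adjusted p = 0.00464, and 0.77 with the block, adjusted p = 0.00283), and without both cultures of BPAC donor 1 that of *Bmp7* was 0.68 (adjusted p = 0.00463). For *Id2* the difference was 0.61 ± 0.30 (adjusted p = 0.184). For the *Trp53* allele, tested as PAC and BPAC against AC and BAC, 0 of the 9 genes passed, where 0.0148% of all genes did, and no gene of the 9 had an unadjusted p under 0.05, as 1.04% of all genes did. Limma-voom and DESeq2 called 0 as well, and the differences ran from -0.35 (*Bmp2*) to 0.32 (*Bmp7*).

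The levels themselves were compared between donors with and without the *Braf* allele, separately for each treatment. With EtOH, before recombination, edgeR called 0 of the 9 genes and 0.0296% of all genes. Limma-voom called 0 of the 9 and 0 of all genes, and DESeq2 0 of the 9 and 63 of all genes. An unadjusted p under 0.05 in edgeR was found for 2 of them, *Bmp2* (0.58 ± 0.26 higher with the allele, adjusted p = 0.253) and *Bmp7* (-0.44 ± 0.16, lower with the allele, adjusted p = 0.18), where 17.2% of all genes had one. With 4-HT, 1 of the 9 genes was higher, *Bambi*, where 15.6% of all genes were. *Bambi* was at 19.1 to 29.7 CPM (median 23.7) in the 6 samples of AC and PAC and at 27.9 to 41.5 CPM (median 34.2) in the 8 samples of BAC and BPAC. The groups overlapped through 1 AC value, and the difference was 0.50 ± 0.12 (SE, log2, adjusted p = 0.00223). Without the duplicate 2 culture of AC it was 0.41 (adjusted p = 0.0367), and without both cultures of BPAC donor 1 it was 0.46 (adjusted p = 0.0105). Both times 0 of the 9 genes passed, with 2759 and 3622 of all genes called in either direction. Without the duplicate 1 culture of AC, 4 of the 9 genes passed, *Bambi* and the 3 Id genes (1.21 for *Id1*, 1.00 for *Id2* and 1.21 for *Id3*), with 2821 of all genes called in either direction against 4084 over all samples. Without both duplicate 1 cultures of PAC 4 passed as well, with 4006 of all genes called.

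None of the 3 Id genes passed in the same comparison. *Id2* was at 26.9 to 70.2 CPM (median 46.6) without the *Braf* allele and at 48.8 to 114 CPM (median 74.5) with it, a difference of 0.70 ± 0.22 (SE, log2, adjusted p = 0.0119). *Id1* was at 28.6 to 114 CPM (median 70.7) against 82.7 to 152 CPM (median 108), a difference of 0.69 ± 0.27 (adjusted p = 0.0424). *Id3* was at 18.3 to 95.2 CPM (median 55.6) against 59.3 to 111 CPM (median 75.9), a difference of 0.59 ± 0.27 (adjusted p = 0.0823). All 3 overlapped between the groups. *Id2* passed when the counts of each donor were summed (0.68, adjusted p = 0.00294), as did *Id3* (0.55, adjusted p = 0.00437), and not *Id1* (0.65, adjusted p = 0.0257). With the duplicate number as a covariate *Id1* (0.80, adjusted p = 0.00582) and *Id2* (0.74, adjusted p = 0.00339) passed, with 5411 of all genes called. *Id2* also passed in limma-voom (0.71, adjusted p = 0.00848) and in DESeq2 (0.70, adjusted p = 0.00294).

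These overlaps differed between the duplicates, a split seen in the data and given as a description. In duplicate 2 with 4-HT, *Id1* was at 28.6, 49.4 and 52.8 CPM in the AC and PAC donors and at 111, 105, 152 and 91.0 CPM in the BAC and BPAC donors. In duplicate 1 it was at 88.6, 110 and 114 CPM against 135, 129, 90.1 and 82.7 CPM. The 2 groups of donors did not overlap in duplicate 2 and overlapped in duplicate 1. In duplicate 2, 6 of the 9 genes did not overlap, all higher with the allele, against 23.5% of all genes higher and 22.1% lower without overlap, and in duplicate 1 it was 1 of the 9, *Bambi*, against 28.4% and 24.0%. *Id2*, *Id3*, *Smad6* and *Smad7* showed the same: in duplicate 2 with 4-HT they did not overlap, with *Id3* at 18.3 to 43.3 CPM against 70.8 to 111 CPM and *Smad6* at 8.20 to 10.5 CPM against 15.6 to 22.6 CPM, while in duplicate 1 they did. *Bambi* did not overlap in either duplicate, at 24.9 to 29.7 CPM against 30.1 to 41.5 CPM in duplicate 1 and 19.1 to 22.4 CPM against 27.9 to 36.5 CPM in duplicate 2. In duplicate 2 alone the log2 difference in level with 4-HT was 1.58 for *Id1*, 1.21 for *Id2*, 1.57 for *Id3*, 1.09 for *Smad6*, 0.46 for *Smad7* and 0.58 for *Bambi*. In duplicate 1 alone it was 0.10 for *Id1*, 0.30 for *Id2*, -0.03 for *Id3*, 0.01 for *Smad6*, -0.19 for *Smad7* and 0.44 for *Bambi*. Without the PAC values of duplicate 1, the AC value alone lay inside the range of the BAC and BPAC donors for the 3 Id genes, *Smad6* and *Smad7*, and under it for *Bambi*.

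**Figure D4:**
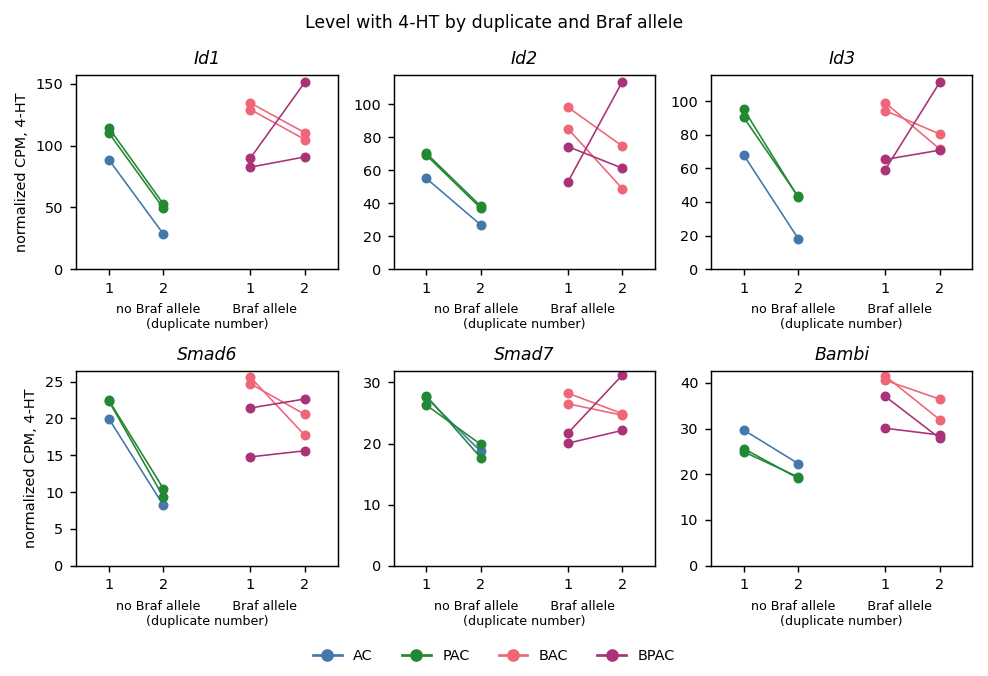
Level with 4-HT, in normalized CPM on a linear axis from 0, of *Id1*, *Id2*, *Id3*, *Smad6*, *Smad7* and *Bambi* in duplicates 1 and 2 of the donors without the *Braf* allele (AC and PAC, left) and with it (BAC and BPAC, right); a line joins the duplicates of a donor. All 3 lines on the left fall in each panel, and the lines of the BPAC donors rise for *Id1* and *Id3*.

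The duplicates themselves were compared by duplicate 2 minus duplicate 1 within donors, a comparison added after these values were seen. With EtOH, 3 of the 9 genes were lower in duplicate 2, where 10.4% of all genes were, and 1 was higher, where 10.1% were. *Smad6* was at -0.64 ± 0.17 (SE, log2, adjusted p = 0.00797), *Smad7* at -0.56 ± 0.14 (adjusted p = 0.00397) and *Id3* at -0.60 ± 0.14 (adjusted p = 0.00352), each in 6 of 7 donors. *Bmpr1a* was higher by 0.29 ± 0.04 (adjusted p = 5.34e-05), in 7 of 7 donors. With 4-HT, 4 of the 9 genes were lower, where 8.99% of all genes were, and 1 was higher, where 9.82% were. These were *Smad6* at -0.69 ± 0.17 (adjusted p = 0.00513), *Id3* at -0.63 ± 0.15 (adjusted p = 0.00243), *Id1* at -0.60 ± 0.17 (adjusted p = 0.00911) and *Bambi* at -0.33 ± 0.08 (adjusted p = 0.00328), while *Bmpr1a* was at 0.47 ± 0.04 (adjusted p = 1.95e-07). The receptor was thus higher in duplicate 2 in 7 of 7 donors with either treatment, and *Bambi* with 4-HT lower in 7 of 7. *Id1* with EtOH was lower in 7 of 7 donors, at -0.53 ± 0.17 (adjusted p = 0.0169). Of the 10 epithelial markers 5 were lower in duplicate 2 with EtOH, and with 4-HT 2 were lower and 1 higher. These calls were lost in many of the 14 fits that each left out 1 culture: with 4-HT that of *Id1* in 12 (adjusted p up to 0.0566), *Smad6* in 10, *Bambi* in 6 and *Id3* in 2, and with EtOH that of *Smad6* in 11, *Smad7* in 7 and *Id3* in 4. *Bmpr1a* passed in all 14 with both treatments. When both duplicate 1 cultures of PAC were left out, 0 of the 9 genes passed with EtOH (259 of all genes, against 2777) and 1 with 4-HT (213 of all genes, against 2542). The gene that passed was *Bmpr1a* (0.47, adjusted p = 0.000791), which with EtOH was at 0.26 (adjusted p = 0.0241). Since the labels do not tie the duplicate number to a passage, the part of the passage in these differences was not tested.

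With 4-HT the duplicate difference was then compared between donors with and without the *Braf* allele. In the 3 donors without it the log2 difference of *Id1* ran from -1.63 to -1.11, and in the 4 donors with it from -0.30 to 0.75. For *Id3* the difference ran from -1.89 to -1.06 without the allele and from -0.47 to 0.91 with it, and for *Smad6* from -1.27 to -1.10 and from -0.53 to 0.08. The donor groups did not overlap for these 3 genes, nor for *Id2*, *Smad7* and *Bmp2*, which makes 6 of the 9, all higher with the allele, where 5.90% of all genes were higher and 6.81% lower without overlap. With EtOH, before recombination, 4 of the 9 did not overlap, 3 of them higher with the allele (5.41% of all genes) and 1 lower (4.10%). These were *Id1* (-0.88 to -0.71 without the allele, -0.54 to -0.06 with it), *Id2* (-0.68 to -0.40 and -0.37 to 0.35) and *Id3* (-0.98 to -0.85 and -0.77 to 0.12) as higher and *Bambi* (0.27 to 0.67 and -0.53 to 0.27) as lower, and that difference was not tested. In the test of the difference with 4-HT none of the 9 genes passed, where 0% of all genes did as higher, in edgeR or in limma-voom, and 6 had an unadjusted p under 0.05, as 6.54% of all genes did. The difference of differences was 1.46 ± 0.29 (SE, log2) for *Id3* (adjusted p = 0.116), 1.40 ± 0.33 for *Id1* (adjusted p = 0.351) and 1.06 ± 0.35 for *Smad6* (adjusted p = 0.554). *Bambi* and *Bmpr1a* were at 0.14 ± 0.16 and -0.01 ± 0.09. Of the 3 donors without the allele 2 are PAC donors, and without both duplicate 1 cultures of PAC the AC donor alone stood for them. The difference of differences was then 1.99 for *Id3* (adjusted p = 0.387) and 1.73 for *Id1* (adjusted p = 0.819), and 0 of the 9 and 0 of all genes passed.

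The rest of the pathway was described through 7 fixed lists without the genes above, of which 50 of 74 genes were counted. In AC 3 of these 50 rose and 2 fell, PAC had 10 rises and 7 falls, BAC 9 of each, and BPAC 8 rises and 9 falls. Paired by culture, AC had 4 rises and 6 falls, PAC 10 and 11, BAC 11 and 13, and BPAC 9 and 12. Without both duplicate 1 cultures of PAC, 0 of the 50 were called in PAC, and 3 rose and 2 fell in the paired fit. The counts read against the shares of all genes given above for the same fits, and their median log2 change lay between -0.09 (PAC) and 0.05 (BPAC). None of the 5 signal-transducing SMADs counted (*Smad1*, *Smad2*, *Smad3*, *Smad4* and *Smad5*) was called in any genotype. Limma-voom and DESeq2 also called none, and edgeR gave an unadjusted p under 0.05 for 1 of them in each of PAC, BAC and BPAC and for 0 in AC. Of all genes 45.6% had one in PAC, 59.4% in BAC, 60.9% in BPAC and 30.8% in AC. None was called with the culture as a block either, with *Smad5* in BPAC (0.33, adjusted p = 0.0106) and *Smad2* in BAC (0.19, adjusted p = 0.0110) nearest to the threshold, and *Smad2* was higher in 4 of 4 cultures of BAC and of BPAC. *Smad4*, the partner shared by both branches, was at 146 to 186 CPM with EtOH and at 151 to 194 CPM with 4-HT.

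Among the ligands, 6 of 14 were counted. *Tgfb1*, the TGF-β branch ligand, rose in all 4 genotypes, from 0.82 ± 0.17 (SE, log2) in PAC (adjusted p = 0.000645) to 1.82 ± 0.17 in BPAC (adjusted p = 5.14e-09), and the rise was larger with the *Braf* allele by 0.81 ± 0.19 (adjusted p = 0.00520). Its PAC call was lost without both duplicate 1 cultures of PAC (0.67, adjusted p = 0.117), also with the block (0.71, adjusted p = 0.0165). *Bmp3*, which antagonizes other BMP ligands, had the largest called change of the list in BPAC, a fall by 1.84 ± 0.31 on the log2 scale (adjusted p = 1.66e-05). It also passed with the culture as a block in PAC (-0.96, adjusted p = 4.27e-05, and 0.00995 without both duplicate 1 cultures) and AC (-1.25, adjusted p = 0.000327), and for the *Braf* allele (-0.74, adjusted p = 0.00221). *Bmp3* was at 64.2 to 143 CPM with EtOH and at 18.7 to 86.4 CPM with 4-HT. *Bmp8b* rose in BAC and BPAC and passed for the *Braf* allele (0.60 ± 0.14, adjusted p = 0.00462), and as *Bmp8a* is nearly identical in sequence and fell in PAC, BAC and BPAC, the split of reads between them is uncertain. The PAC call of *Bmp8a* was lost without both duplicate 1 cultures (-0.98, adjusted p = 0.0484).

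Of the receptors and co-receptors 12 of 15 were counted, of which 1 rose in AC, 2 rose and 2 fell in PAC, 2 rose and 3 fell in BAC, and 2 fell in BPAC. Of all genes 3.00% rose and 4.25% fell in AC, 11.2% and 12.2% in PAC, 20.3% and 21.5% in BAC, and 22.0% and 23.0% in BPAC. Paired by culture, 1 rose and 4 fell in BPAC, against 26.7% and 27.7% of all genes. Without both duplicate 1 cultures of PAC, 0 were called in PAC, and 1 rose in the paired fit, against 3.03% of all genes. *Acvr1c*, a receptor for Nodal and activin, had the largest called change in BPAC, a fall by 1.99 ± 0.29 on the log2 scale (adjusted p = 3.17e-06), and it was lower with 4-HT in 14 of 14 cultures. It was at low levels, 3.74 to 8.98 CPM with EtOH and 0.839 to 4.35 CPM with 4-HT.

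Extracellular antagonists were counted for 6 of 16 genes, and all calls among them were falls, with 3 in BPAC, 1 in BAC and 2 each in PAC and AC. Of all genes 23.0%, 21.5%, 12.2% and 4.25% fell in these genotypes, in that order. In the blocked fit 3 fell in each genotype, *Bmper* among them, where 27.7%, 26.7%, 18.4% and 8.99% of all genes fell in that order. Without both duplicate 1 cultures of PAC, 0 were called in PAC, and 1 fell in the blocked fit, against 3.71% of all genes. *Crim1*, a membrane protein that tethers BMP ligands, fell in all 4 genotypes, with log2 changes from -0.86 ± 0.10 (SE) in BPAC (adjusted p = 5.80e-08) to -0.58 ± 0.10 in BAC (adjusted p = 1.85e-05), and in AC by 0.71 ± 0.13 (adjusted p = 0.00116). In PAC without both duplicate 1 cultures *Crim1* was at -0.57 (adjusted p = 0.0108), and with the block it passed (-0.57, adjusted p = 0.00170). *Bmper*, a secreted BMP-binding protein, had the largest called change in BPAC, a fall by 3.58 ± 0.78 (adjusted p = 0.000396), at levels of 0.0827 to 3.28 CPM with EtOH and 0 to 1.27 CPM with 4-HT. Among the 12 intracellular regulators, 0 were called in AC, 4 rose and 2 fell in PAC, 2 rose and 2 fell in BAC, and 3 rose and 2 fell in BPAC. Of all genes 11.2% rose and 12.2% fell in PAC, 20.3% and 21.5% in BAC, and 22.0% and 23.0% in BPAC. Without both duplicate 1 cultures of PAC, 0 of the 12 were called in PAC, with or without the block. In AC, edgeR gave 5 of the 12 an unadjusted p under 0.05, as 30.8% of all genes had, limma-voom called 0 and DESeq2 called 1, and the block 1. *Tgif2*, a SMAD corepressor, had the largest called change in BPAC (1.62 ± 0.48, adjusted p = 0.00581), at no more than 1.01 CPM in any sample.

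Other targets were counted for 6 of 8 genes, and all calls among them were rises. *Atoh8*, a basic helix-loop-helix factor induced by BMP in several tissues, rose in all 4 genotypes, from 1.28 ± 0.25 (SE, log2) in BPAC (adjusted p = 0.000105) to 1.89 ± 0.35 in AC (adjusted p = 0.00106). In PAC without both duplicate 1 cultures *Atoh8* was at 1.26 (adjusted p = 0.0304), and with the block it passed (1.25, adjusted p = 0.00304). It was at 3.00 to 6.01 CPM with EtOH and at 8.86 to 21 CPM with 4-HT, without overlap. *Id4*, the fourth Id gene, rose by 1.08 ± 0.24 in BPAC (adjusted p = 0.000397) and passed for the *Braf* allele (1.13 ± 0.26, adjusted p = 0.00510). It passed in BAC with the culture as a block (0.69, adjusted p = 0.00744), at levels of 2.14 to 6.95 CPM over all samples. Of the 3 E proteins, *Tcf3*, which encodes the E12 and E47 partners of Id proteins, rose in PAC, BAC and BPAC, by 0.75 ± 0.17 in the last (adjusted p = 0.000786), and it was higher in 14 of 14 cultures and passed in AC with the block (0.66, adjusted p = 0.000937). Its PAC call was lost without both duplicate 1 cultures (0.60, adjusted p = 0.1395) and held with the block (0.60, adjusted p = 0.00345). *Tcf4* fell in BAC by 0.39 ± 0.12 (adjusted p = 0.00764), and *Tcf12* was called in no genotype.

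**Figure D5:**
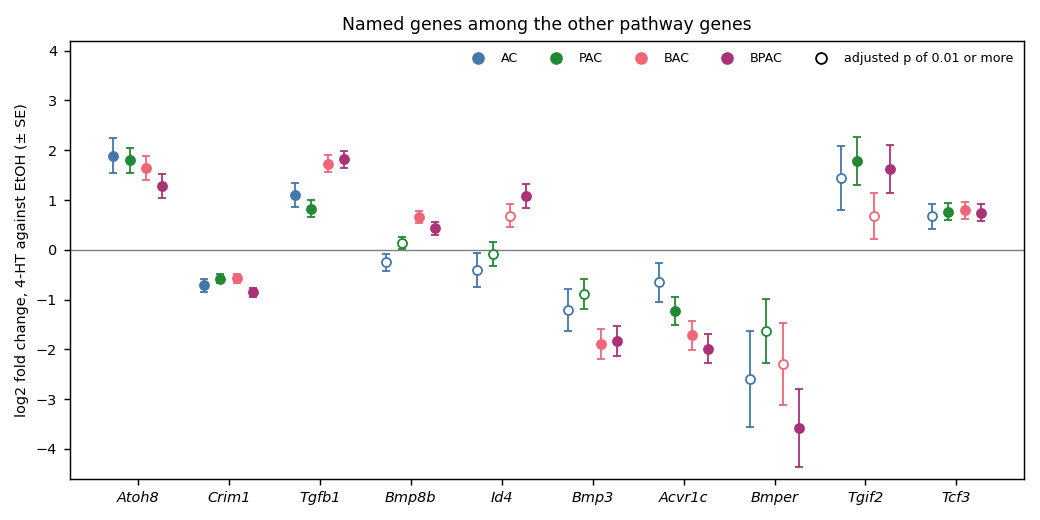
Log2 fold change of 4-HT against EtOH with its SE for the named genes of the other pathway lists in each genotype; filled points have an adjusted p under 0.01 in edgeR's quasi-likelihood test. *Atoh8* and *Tgfb1* are above 0 and *Crim1* below 0 with filled points in all 4 genotypes, and *Bmper* in BPAC is lowest at -3.58.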

How the data were processed

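Bulk RNA-seq of 28 organoid samples was used. The submitters' processing notes name Trimmomatic 0.39 and STAR 2.5.2b, and per the methods the authors aligned reads to GRCm38 with STAR, removed genes with very low row sums and deposited raw counts per gene, whose lowest sum over all samples was 116. The counting program, its annotation and its strand setting are not given in the sources used here. Symbols and positions come from GENCODE, which named 13479 of 13519 genes, and exon lengths from the same annotation. The 10 genes, the lists and the tests were chosen with earlier results of these data known. The number missing from one 4-HT label was read as 1, since its donor has a second sample numbered 2.

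Counts were scaled with TMM and fitted with edgeR 4.0.16 (R 4.3.3) on the 8 combinations of genotype and treatment, using the quasi-likelihood test, Benjamini-Hochberg adjustment over all genes and a threshold of 0.01. The paper names limma, so limma-voom (3.58.1) and DESeq2 (1.42.0) were alternatives. Standard errors are the log2 fold change divided by the square root of F. Levels are TMM-scaled CPM, and changes per culture use log2 CPM with a prior count of 2. Other pathway genes were named if called in all 4 genotypes in one direction, if called for the *Braf* allele, or if of the largest called change of their list in BPAC.

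The EtOH and 4-HT samples of a duplicate share its donor. In all 12 cultures of PAC, BAC and BPAC their deviations from the group means correlated across genes (r from 0.245 to 0.532, against -0.0590 on average with the other culture of the donor), so the fit with the culture as a block is given beside the calls it changes among the 9 genes and the named genes. Duplicates share a donor, so p-values measure the spread between cultures and not between mice. Counts carry no molecular identifiers. Other alternatives were other scalings, a mean count of at least 100, donor sums, each genotype or duplicate alone, each culture left out, an adjusted p of 0.05 and prior counts of 0.5 and 5, and, chosen after seeing the data, the duplicate number as a covariate, the 2 PAC samples that stand apart summed, BPAC donor 1 left out, and, with the block and between duplicates, both duplicate 1 cultures of PAC left out. The tests were tried on simulated counts with the same spread for all genes and no effect of donor, culture or duplicate. The simulation therefore cannot speak for p-values in these data, where cultures are paired and duplicates share a donor. Figures were drawn with Python 3.11.15.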

Additional observations from a re-analysis of the deposited data

Results flagged for a closer look

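In groups of 4 the highest and the lowest value were compared with the other 3, over 81 groups of levels or changes of the 9 genes, and 2 stood apart; chance alone marks about 1 in 20 such groups. *Bmp2* in the 4-HT-treated PAC samples was at 39.7 CPM in duplicate 2 of donor 1, under the 43.8 to 44.7 CPM of the other 3, of which 2 are the PAC samples that hold *Xist* and Y-linked counts together. *Id1* in the 4-HT-treated BPAC samples was at 152 CPM in duplicate 2 of donor 1, above the 82.7 to 91.0 CPM of the other 3.

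Some pairs of genotypes moved in opposite directions in every culture, a difference that was not tested for the pair. *Bmpr1a* was lower with 4-HT in all 4 PAC cultures (mean log2 change -0.25) and higher in all 4 BPAC cultures (0.08), a difference of 0.33. The BPAC changes were 0.016, 0.014, 0.075 and 0.217, so that 2 of them were close to 0. In PAC the changes were -0.382 and -0.331 in the duplicate 1 cultures, whose 4-HT samples stand apart, and -0.175 and -0.121 in duplicate 2. The share of all genes with such opposite directions was not counted here. *Id3* was lower in both AC cultures (mean -0.46, with -0.007 in duplicate 1 and -0.91 in duplicate 2, so that 1 culture carried the mean) and higher in all 4 BAC cultures (0.42), a difference of 0.89.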

How the results depend on the processing

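Of the single-gene results under all alternatives, 2414 kept their direction and side of the threshold, 68 newly passed it and 84 lost it. Another 80 changed sign on the side of the threshold that is not called, 7 of them with library size alone. The counts of the 9 genes past the threshold moved as follows, each with the number of all genes called, and the cause was not tested. In AC (0, with 980 of all genes) it was 1 with DESeq2 (1611), 1 with library size alone (1813), 2 without both cultures of BPAC donor 1 (1318), 1 at an adjusted p of 0.05 (2275) and 0 to 1 with each culture left out. In PAC (3, with 3166) it was 5 in duplicate 1 alone (3968), 0 in duplicate 2 alone (7), 0 without both duplicate 1 cultures of PAC (48), 5 with the duplicate number as a covariate (4486) and 1 to 3 with each culture left out. In BAC (3, with 5660) it was 5 in duplicate 1 alone (5169) and 5 at 0.05 (7408), and in BPAC (4, with 6089) it was 2 in duplicate 2 alone (2997). For the *Braf* allele's effect on the change (0, with 893) it was 1 without both duplicate 1 cultures of PAC (790), 1 without BPAC donor 1 (796) and 1 at 0.05 (1989). For 4-HT levels with and without the *Braf* allele (1, with 4084) it was 2 with limma-voom (4328), 2 with DESeq2 (4703), 3 with donor sums (3701), 0 in duplicate 1 alone (3458), 4 in duplicate 2 alone (1145), 4 without both duplicate 1 cultures of PAC (4006), 3 with the duplicate covariate (5411), 2 with the PAC samples that stand apart summed (3892), 0 without BPAC donor 1 (3622), 3 at 0.05 (5902) and 0 to 4 with each culture left out. Between duplicates it was 1 to 5 with EtOH (4, with 2777) and 1 to 6 with 4-HT (5, with 2542) with each culture left out, and 0 (259) and 1 (213) without both duplicate 1 cultures of PAC.

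With the culture as the replicate block the count was 2 in AC (2223), 5 in PAC (4717) and 5 in BAC (7017). With the block and without both duplicate 1 cultures of PAC it was 3 in AC (2280), 5 in BAC (6980), 2 in PAC (910) and 1 for the *Braf* allele (1835). In BPAC and in the *Trp53* contrast the count stayed within 1.5 times under both.

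Each genotype rests on 1 or 2 donors, so differences between mice and between genotypes cannot be told apart well. Depth was no limit for the 9 genes, all with at least 109 counts, while *Bmper* and *Tgif2* rest on few counts.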
